A study of Mus musculus with 14 samples.

Results

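Il33, Tslp, Il1a, Il18 and Hmgb1 encode the best-known alarmins of barrier epithelium, and their transcripts were followed in the lungs of allergen-exposed mice. The members were taken by gene symbol, so 5 of the 54347 genes in each table were described. All 5 passed the low-count filter in each experiment. RNA was sequenced from 14 whole-lung libraries of C57BL/6 mice, every group of which had received intranasal Alternaria alternata extract, a fungal allergen, at 2 mg in 40 µl a dose on 4 days in a row. They came from 3 experiments that share no control.

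In the bone marrow chimeras, irradiated recipients with human JAK1 gain of function (GOF, n = 2) and wild-type recipients (WT, n = 2) were reconstituted alike with WT marrow, so the genotypes differed in the cells of the recipient and not in the transplanted cells. The labels used here give neither the allele nor the promoter of the GOF. In the intrathecal experiment, WT mice were given resiniferatoxin (RTX) into the L5-L6 region at 25 ng a day on 2 days (n = 3), or 10 µl saline as vehicle (n = 2). In the subcutaneous experiment, WT mice were given RTX in the flank at 30, 70 and 100 µg/kg over 3 days (n = 3), or 100 µl saline (n = 2). RTX is an agonist of the TRPV1 channel that destroys sensory neurons bearing it. The study used the intrathecal route to remove spinal afferents and the subcutaneous route to remove both vagal and spinal afferents. The cell bodies of these neurons lie outside the lung, so lung RNA does not check the ablation, and counts of the mouse Jak1 gene do not check the human GOF label.

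Alarmins are signals that epithelial and other barrier cells release when they are damaged or stimulated. IL-33 binds ST2, encoded by Il1rl1, with the shared chain Il1rap, and TSLP binds Crlf2 with Il7r, a receptor that signals through JAK1. These pathways activate group 2 innate lymphoid cells, mast cells, dendritic cells and T helper 2 cells in allergic lungs. IL-1α acts through Il1r1, IL-18 through Il18r1 and Il18rap, and HMGB1, a chromatin protein of every nucleus, through Ager, Tlr2 and Tlr4 once it is outside the cell. IL-33, IL-1α and HMGB1 are held in the cell and released on damage, whereas IL-18 is matured by caspase-1. Transcript levels therefore do not measure release of the proteins.

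RefSeq start-site windows on GRCm38.p6, from 250 bases before to 50 after a start, were matched for 4 of the 5 members, in 6 windows. The 4 windows printed here are both of Il33, the only one of Il1a and 1 of the 2 of Hmgb1, shown as examples of windows with and without TATAAA. Il33 has 2 of these windows, the distal one at chr19:29924863-29925162 (plus strand) and a proximal one at chr19:29945540-29945839 (plus strand), while the window of Il1a is chr2:129309923-129310222 (minus strand) and that of Hmgb1 printed here is chr5:149053008-149053307 (minus strand). Capitals mark every match, on either strand, to the motifs TATAAA and ATAAAA, which can overlap, to the motif CCAAT and to the motif TTCNNNGAA.
Il33 distal start: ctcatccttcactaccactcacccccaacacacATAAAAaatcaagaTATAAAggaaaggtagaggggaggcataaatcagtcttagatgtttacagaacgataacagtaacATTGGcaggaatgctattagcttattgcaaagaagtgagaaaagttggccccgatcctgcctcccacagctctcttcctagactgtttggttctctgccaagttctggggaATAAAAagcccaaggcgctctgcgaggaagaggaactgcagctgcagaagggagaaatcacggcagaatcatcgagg
Il33 proximal start: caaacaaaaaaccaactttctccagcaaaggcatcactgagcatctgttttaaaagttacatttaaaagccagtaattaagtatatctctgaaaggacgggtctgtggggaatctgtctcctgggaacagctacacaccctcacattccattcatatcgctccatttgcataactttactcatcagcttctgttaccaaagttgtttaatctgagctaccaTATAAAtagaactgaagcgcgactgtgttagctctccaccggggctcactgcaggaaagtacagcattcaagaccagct
Il1a start: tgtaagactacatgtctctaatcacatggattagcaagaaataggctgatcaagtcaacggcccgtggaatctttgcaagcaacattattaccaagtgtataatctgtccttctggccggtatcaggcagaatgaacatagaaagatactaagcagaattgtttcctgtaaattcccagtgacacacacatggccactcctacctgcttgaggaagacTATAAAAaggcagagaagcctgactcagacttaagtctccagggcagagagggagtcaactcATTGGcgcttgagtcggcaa
Hmgb1 start: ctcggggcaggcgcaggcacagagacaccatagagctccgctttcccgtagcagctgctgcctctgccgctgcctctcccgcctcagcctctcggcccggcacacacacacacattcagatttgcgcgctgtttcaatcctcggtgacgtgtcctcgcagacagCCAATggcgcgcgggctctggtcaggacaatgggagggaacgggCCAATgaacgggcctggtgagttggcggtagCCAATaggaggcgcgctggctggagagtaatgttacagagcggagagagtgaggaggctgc
TATAAA begins 29 bases before the proximal Il33 start and 32 bases before the Il1a start, where it runs on into ATAAAA. In the distal Il33 window, ATAAAA begins 27 bases before the start and TATAAA 203 bases before it. The printed Hmgb1 window holds no TATAAA but has CCAAT at 86, 42 and 11 bases before the start, 22 CG pairs and 63.0% G and C. The windows not printed lie further apart, the other of Hmgb1 having 45 CG pairs, 77.0% G and C and no CCAAT, and that of Il18 having 1 CG pair and 36.7% G and C. The windows of Il33 and Il1a hold 42.3% to 46.3% G and C and 5 or 6 CG pairs, against medians of 52.7% and 7 over 32851 windows of 27025 genes. Of all those windows, 13.6% hold TATAAA, 18.5% ATAAAA, 37.4% CCAAT and 8.30% TTCNNNGAA, the spacing that STAT factors recognise. None of the 6 member windows holds the letters TTCNNNGAA. These matches describe letters in the windows only.

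The members lie on separate chromosomes of GRCm38, with positions taken from GENCODE M21 by gene identifier. Il33 (ENSMUSG00000024810.16) spans chr19:29925114-29960718 on the plus strand, Tslp (ENSMUSG00000024379.4) chr18:32815383-32819797 on the plus strand, and Il1a (ENSMUSG00000027399.1) chr2:129299610-129309972 on the minus strand. Il18 (ENSMUSG00000039217.13) spans chr9:50554827-50581840 on the plus strand and Hmgb1 (ENSMUSG00000066551.12) chr5:149046702-149184489 on the minus strand. All are protein-coding genes. Exons of Il1a share 222 bases with the antisense transcript Gm14023, which was at no more than 1.04 counts per 1000000 counts of a library's total (CPM), and exons of Hmgb1 share 42 bases with Uspl1 on the other strand. Reads of such partners cannot be told apart without a strand setting, which is not given in the sources used here.

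Depth was 18198872 to 24393000 counts a library, and 23448 to 24429 genes had a count. Values per library are in CPM. A floor of 3 counts corresponds to at most 0.165 CPM and covers counting error only, and every member was above it in every library. No label ties replicate libraries to different animals, so the p-values reflect spread among these libraries that may be technical. In bulk RNA, fewer cells of a type and less RNA per cell cannot be told apart. Defining markers of lung epithelium were high in each library, Sftpc of alveolar type 2 cells at 5453 to 10323 CPM. Libraries also differed in trace transcripts that did not follow the groups everywhere. By Rps3a2 and Hmga2 at a threshold of 2 CPM, 1 WT recipient stood apart from the other 3 chimera libraries, and all 3 intrathecal RTX libraries stood apart from both of their vehicle libraries. The subcutaneous libraries were mixed.

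Per kilobase of exon, Il33 and Hmgb1 were the abundant alarmin transcripts of these lungs and Il1a, Il18 and Tslp the scarce ones. The medians over the 14 libraries were 201 CPM per kb for Il33, 82.5 for Hmgb1, 4.71 for Il1a, 3.91 for Il18 and 1.68 for Tslp. By mean level per kb, Il33 exceeded 99.3%, Hmgb1 98.4%, Il1a 73.2%, Il18 71.0% and Tslp 62.1% of the 32392 genes that had a count. Il33 was above Hmgb1 in the 10 libraries of the RTX experiments and below it in the 4 chimera libraries. The order of Il1a and Il18 differed between libraries (Il1a higher per kb in 8, Il18 in 6), and Tslp came last in all 14. Across the experiments Il33 had the widest relative range, 8.06-fold in CPM over the 14 libraries, against 5.07-fold for Tslp, 2.54-fold for Il1a, 2.01-fold for Il18 and 1.31-fold for Hmgb1. That order did not hold within an experiment, as subcutaneous libraries ran from 0.734 to 3.20 CPM for Tslp and from 590 to 714 CPM for Il33.

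**Figure D1:**
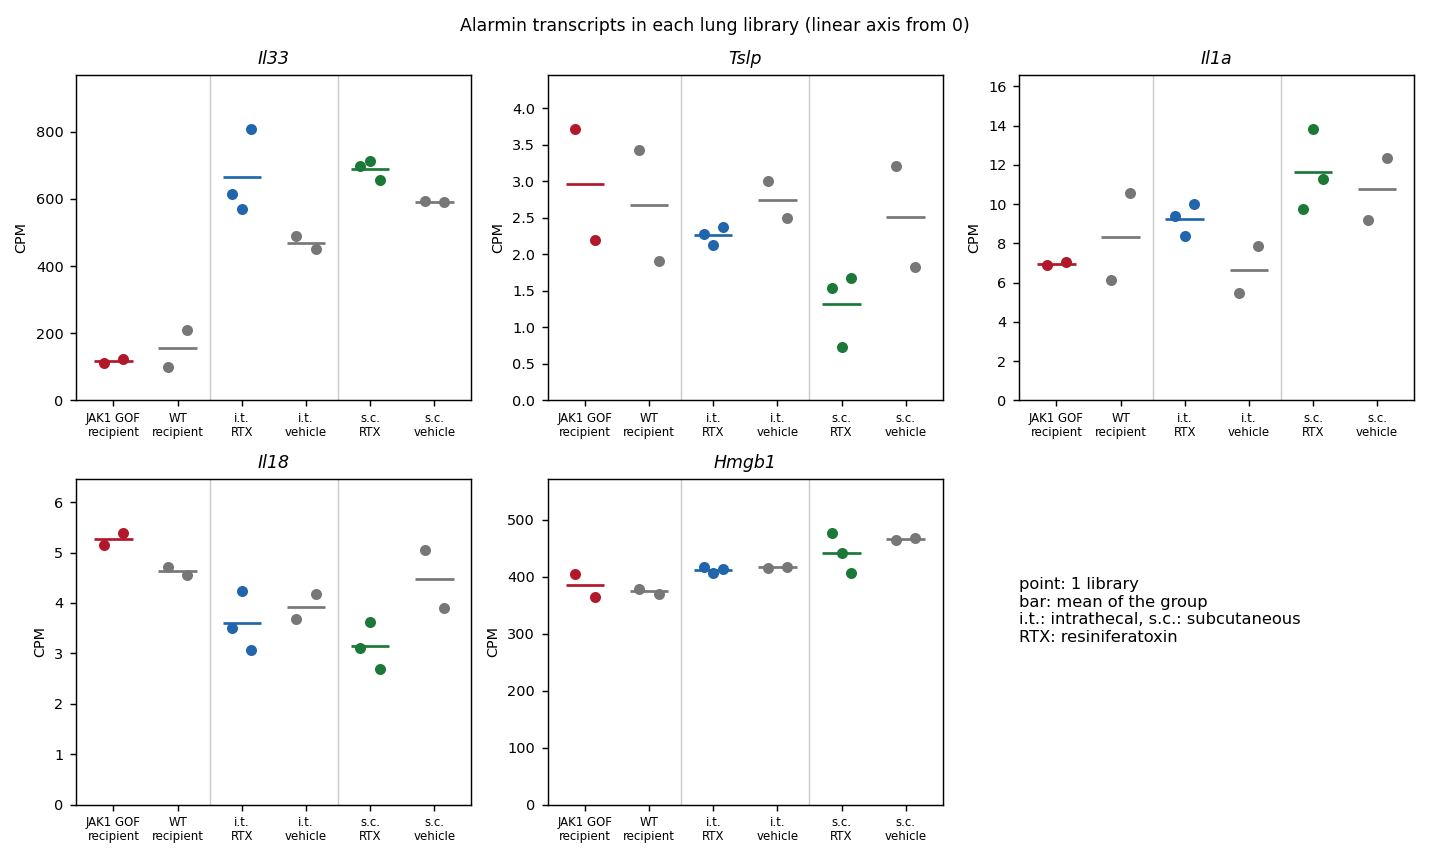
CPM of each alarmin transcript (vertical axes, linear, from 0) in the 14 libraries, 1 point a library with a bar at the group mean, for JAK1 GOF and WT recipients, intrathecal (i.t.) RTX and vehicle, and subcutaneous (s.c.) RTX and vehicle. Il33 lay at 100 to 210 CPM in the chimeras and at 450 to 809 CPM in the other 10 libraries, while Hmgb1 stayed between 365 and 476 CPM throughout.

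By edgeR's test, no alarmin transcript passed an adjusted p of 0.05 in any of the 3 experiments, while DESeq2 and edgeR without the low-count filter called Il33 for intrathecal RTX. With edgeR's quasi-likelihood test, 0 of 5 passed in GOF against WT recipients (background 0.717% of genes), 0 of 5 for intrathecal RTX (0.311%) and 0 of 5 for subcutaneous RTX (0%). At an unadjusted p under 0.05 there were 0 members in the chimeras (background 11.6%), 2 for intrathecal RTX, Il33 and Il1a (11.5%), and 1 for subcutaneous RTX, Il33 (18.2%). DESeq2 called 0, 1 and 0 members in these experiments, the 1 being Il33, and limma voom called 0 in each. The groups did not overlap for 1 member in the chimeras (background 42.6%), 3 for intrathecal RTX (30.3%) and 3 for subcutaneous RTX (38.3%). The members' median log2 fold change was 0.05 in the chimeras, 0.0012 for intrathecal RTX and −0.09 for subcutaneous RTX, against medians over all genes of 0.00045, 0.0075 and −0.0045.

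Over all genes, edgeR called 124 of 17298 in the chimeras, 54 of 17360 for intrathecal RTX and 0 of 17363 for subcutaneous RTX, where 3153 had an unadjusted p under 0.05. DESeq2 called 305, 254 and 761 genes, limma voom 87, 58 and 0, and edgeR without the low-count filter 807, 655 and 807. In 1 fit of all 14 libraries edgeR called 50, 7 and 71, and with library state as a term 177, 5 and 184. Leaving out WT recipient 1 raised the chimera count to 919, WT recipient 2 to 303, and leaving out subcutaneous vehicle 2 gave 871 calls in that experiment, where each other omission gave 0 to 12. The count for intrathecal RTX was 19 without RTX library 2, 33 without RTX library 3 and 32 without vehicle 1.

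**Figure D2:**
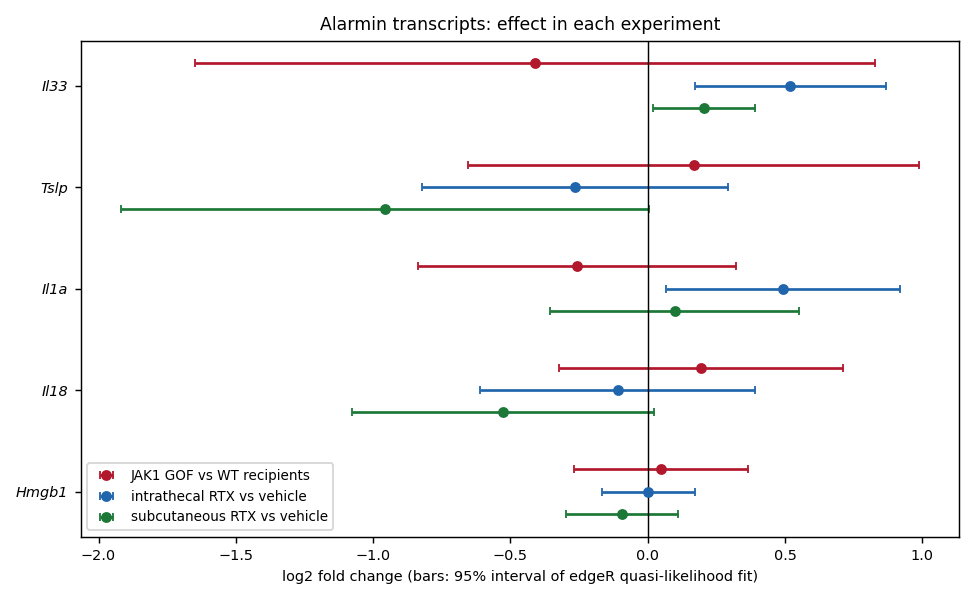
Log2 fold change of each alarmin transcript (horizontal axis) with its 95% interval from the edgeR fit, for JAK1 GOF against WT recipients, intrathecal RTX against vehicle and subcutaneous RTX against vehicle. The intervals that do not include 0 are those of Il33 and Il1a for intrathecal RTX and Il33 for subcutaneous RTX, and none of these passed the adjusted threshold.

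Il33 encodes the nuclear cytokine that activates ST2-bearing cells. After intrathecal RTX it was at 615, 570 and 809 CPM, against 490 and 450 CPM after vehicle. All 3 RTX libraries were above both vehicle libraries. The fold change was 1.43, with an interval of 1.13 to 1.82 (log2 0.52 ± 0.15, SE; edgeR adjusted p = 0.266). With DESeq2 the same contrast passed at 0.52 (adjusted p = 0.0342), and without the low-count filter edgeR gave 0.52 (adjusted p = 2.86e-05).

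The intrathecal groups also differed in the trace transcripts and in heat shock genes, so RTX and library state cannot be told apart there. With state as a term in a fit of all 14 libraries, Il33 was at −0.19 ± 0.30 for intrathecal RTX (edgeR adjusted p = 1). State did not vary within either intrathecal group, so the size of its term came from libraries of the other experiments. Among them were the WT recipients, which differed in state and had 100 and 210 CPM of Il33. The value of −0.19 therefore does not show the RTX effect apart from state. Of the 10 heat shock and handling genes, Hspb1 and Hspe1 rose by 1.92 and 0.90 on the log2 scale after intrathecal RTX, and Hspa1b and Dnajb1 fell by 2.58 and 1.21 on the log2 scale (edgeR adjusted p of 0.000227 to 0.0449). Hspb1 was at 598, 536 and 471 CPM after RTX, against 132 and 153 CPM after vehicle. Dnajb1 lost its call without RTX library 1, 2 or 3 (adjusted p = 0.115, 0.132 and 0.0964), and Hspa1b without RTX library 2 or either vehicle library (adjusted p = 0.132, 0.180 and 0.0844). Of 10 fibroblast and pericyte genes Lum, a matrix proteoglycan, fell after intrathecal RTX, at 8.67, 8.64 and 10.6 CPM against 29.6 and 20.5 CPM after vehicle (log2 −1.41 ± 0.17; edgeR adjusted p = 0.0117, or 0.0608 without RTX library 1 and 0.107 without RTX library 2). The part of these differences in the Il33 result was not tested. The summed level of 10 alveolar type 2 markers overlapped between the groups, at 17540 to 20648 CPM after RTX and 16237 to 19296 CPM after vehicle, and none of the 10 was called. Il33 per 1000 CPM of that list was 28.6 to 39.2 CPM after RTX and 25.4 to 27.7 CPM after vehicle.

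After subcutaneous RTX, Il33 was at 699, 714 and 655 CPM, against 594 and 590 CPM after vehicle. All 3 RTX libraries were again above both vehicle libraries. The fold change was 1.15, with an interval of 1.01 to 1.31 (log2 0.20 ± 0.08, SE; edgeR adjusted p = 0.237). With state as a term in the fit of all 14 libraries it was 0.61 ± 0.24 (edgeR adjusted p = 0.216). That term again drew on the WT recipients, whose Il33 differed, as well as on the subcutaneous groups of mixed state. The subcutaneous effect minus the intrathecal effect was −0.30 ± 0.34 (interval −1.06 to 0.45; edgeR adjusted p = 0.739), so the routes were not shown to differ.

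In the chimeras, Il33 was at 111 and 122 CPM in GOF recipients, against 100 and 210 CPM in WT recipients. One WT library was below both GOF libraries and the other above them. The log2 fold change was −0.41 ± 0.42 (SE; interval −1.65 to 0.83; edgeR adjusted p = 0.791). Its sign rested on WT recipient 2. Without that library the value was 0.24 (adjusted p = 0.794), and without WT recipient 1 it was −0.86 (adjusted p = 0.000176), each with 1 WT library left, which the fit assumes to vary like the other group. WT recipient 1 is the library that stood apart in the trace transcripts. The GOF effect minus the intrathecal RTX effect was −0.92 ± 0.37 (edgeR adjusted p = 0.352).

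The 4 chimera libraries held less Il33 than any of the 10 libraries of the RTX experiments. GOF recipients averaged 116 ± 7.63 CPM and WT recipients 155 ± 77.5 CPM (SD, n = 2 each), whereas the vehicle groups averaged 470 ± 27.8 CPM (intrathecal) and 592 ± 2.79 CPM (subcutaneous, SD, n = 2 each). The ratio of Il33 to Hmgb1 in CPM was 0.274 and 0.334 in GOF recipients and 0.265 and 0.567 in WT recipients, against 1.08 to 1.96 in the other 10 libraries. The experiments differ in irradiation, transplant and injections together, and the difference between them was not tested. The summed alveolar type 2 markers of the chimeras, at 15886 and 18243 CPM in GOF recipients and 15057 and 15573 CPM in WT recipients, overlapped those of the other libraries (14825 to 22372 CPM). The summed alveolar macrophage genes did not, at 470 to 1961 CPM in the chimeras and 2592 to 5574 CPM in the other libraries. Most of each sum was Chil3, at 354 to 1669 CPM in the chimeras and 2349 to 5143 CPM in the other libraries. Ear1, Krt79 and Pparg of that list were also lower in every chimera library, while Itgax, Siglecf, Marco and Fabp1 overlapped. The part of either list in the Il33 levels was not tested.

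**Figure D3:**
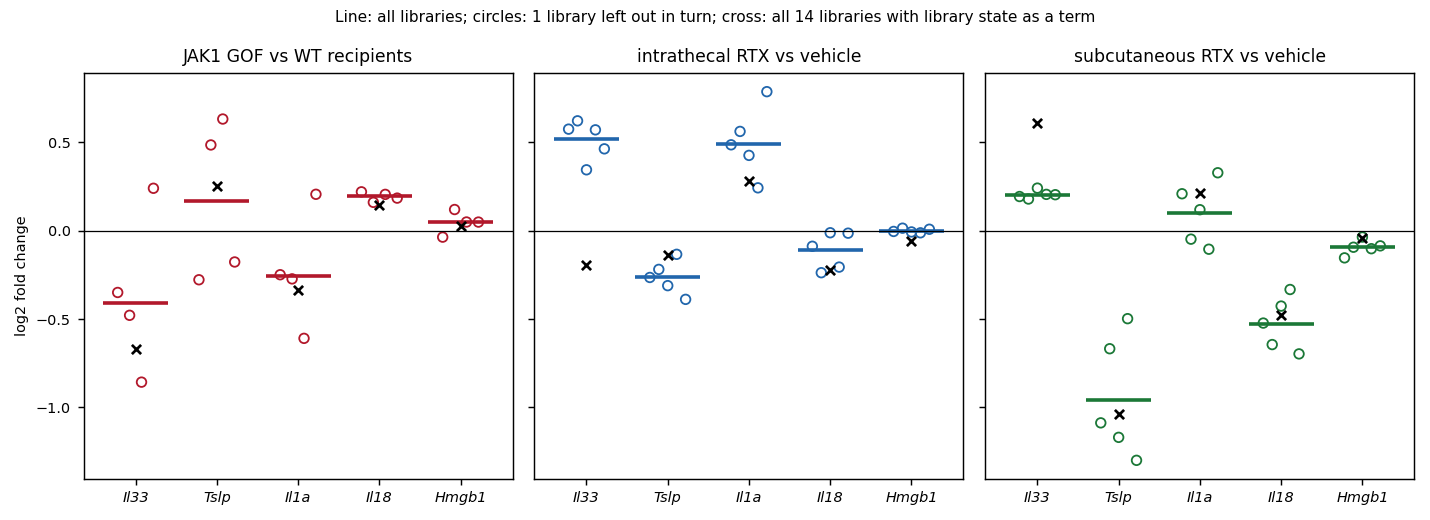
Log2 fold change of each alarmin transcript (vertical axis) in the 3 experiments, with a line for all libraries of the experiment, circles for fits that leave out 1 library in turn, and a cross for the joint fit of 14 libraries that also holds a term for library state. Chimera Il33 ran from −0.86 to 0.24 as 1 library was left out, subcutaneous Tslp stayed negative at −1.30 to −0.50, and the cross for intrathecal Il33 lies at −0.19. State did not vary within either intrathecal group, so the state term behind that cross was set by the other experiments.

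Il1a encodes a cytokine that is active without maturation and that acts on Il1r1. After intrathecal RTX it was at 9.40, 8.38 and 10.0 CPM, against 5.45 and 7.88 CPM after vehicle. All 3 RTX libraries were above both vehicle libraries, by a fold change of 1.41 with an interval of 1.05 to 1.89 (log2 0.49 ± 0.19, SE; edgeR adjusted p = 0.371). The size depended on the vehicle library kept, being 0.24 without vehicle 1 and 0.79 without vehicle 2. After subcutaneous RTX it was at 9.76, 13.8 and 11.3 CPM, against 9.19 and 12.4 CPM after vehicle, and the groups overlapped (log2 0.10 ± 0.20, interval −0.36 to 0.55; edgeR adjusted p = 0.827). GOF recipients had 6.90 and 7.03 CPM, against 6.13 and 10.6 CPM in WT recipients. These groups overlapped as well, with a log2 fold change of −0.26 ± 0.26 (interval −0.84 to 0.32; edgeR adjusted p = 0.764), which was 0.21 without WT recipient 2 and −0.61 without WT recipient 1. Il1a counts ran from 120 to 302 a library.

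Hmgb1, whose protein bends DNA and binds Ager outside the cell, was the steadiest member. GOF recipients had 405 and 365 CPM, against 379 and 370 CPM in WT recipients (log2 0.05 ± 0.15, interval −0.27 to 0.37; edgeR adjusted p = 0.937). After intrathecal RTX it was at 417, 407 and 413 CPM, against 416 and 418 CPM after vehicle. The groups overlapped in both experiments, and the intrathecal interval reached from −0.17 to 0.17 on the log2 scale (edgeR adjusted p = 0.997). After subcutaneous RTX it was at 476, 441 and 406 CPM, against 465 and 467 CPM after vehicle (log2 −0.09 ± 0.09, interval −0.30 to 0.11; edgeR adjusted p = 0.604). The spread among the RTX libraries covered the vehicle pair. Hmgb1 has processed copies, and 14 other genes whose symbols begin with Hmgb1 took 0.350% to 0.824% of the summed CPM. With their counts summed the intrathecal log2 fold change was −0.00076.

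Tslp encodes the epithelial cytokine that conditions dendritic cells and innate lymphoid cells, and it was the scarcest member at 16 to 83 counts a library. After subcutaneous RTX it was at 1.53, 0.734 and 1.68 CPM, against 3.20 and 1.83 CPM after vehicle. All 3 RTX libraries were below both vehicle libraries. The fold change was 0.515, with an interval of 0.264 to 1.00 (log2 −0.96 ± 0.42, SE; unadjusted p = 0.0511, edgeR adjusted p = 0.277). It was −0.50 without vehicle 1 and −1.30 without vehicle 2.

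After intrathecal RTX, Tslp was at 2.27, 2.12 and 2.38 CPM, against 3.00 and 2.49 CPM after vehicle, again with every RTX library below both vehicle libraries (log2 −0.26 ± 0.25, interval −0.82 to 0.29; edgeR adjusted p = 0.737). GOF recipients had 3.72 and 2.20 CPM, against 3.43 and 1.91 CPM in WT recipients, and these groups overlapped. The chimera log2 fold change of 0.17 ± 0.37 (interval −0.65 to 0.99; edgeR adjusted p = 0.910) was −0.28 without GOF recipient 1 and −0.18 without WT recipient 2. The subcutaneous effect minus the intrathecal effect was −0.68 ± 0.52 (edgeR adjusted p = 0.592), and the GOF effect minus the subcutaneous effect was 1.12 ± 0.55 (edgeR adjusted p = 0.226).

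Il18 encodes a cytokine that acts on natural killer, T and innate lymphoid cells after caspase-1 has cleaved its precursor. After subcutaneous RTX it was at 3.11, 3.62 and 2.68 CPM, against 5.06 and 3.90 CPM after vehicle. Each RTX library was below both vehicle libraries, by a fold change of 0.694 with an interval of 0.474 to 1.02 (log2 −0.53 ± 0.24, SE; unadjusted p = 0.0579, edgeR adjusted p = 0.289). It was −0.33 without vehicle 1. After intrathecal RTX it was at 3.49, 4.24 and 3.07 CPM, against 3.68 and 4.17 CPM after vehicle, and the groups overlapped (log2 −0.11 ± 0.22, interval −0.61 to 0.39; edgeR adjusted p = 0.893). GOF recipients had 5.15 and 5.38 CPM, against 4.71 and 4.54 CPM in WT recipients. Both GOF libraries were the higher, but the log2 fold change was 0.19 ± 0.24 (interval −0.32 to 0.71; edgeR adjusted p = 0.806). Counts of 56 to 115 a library limit the precision of each of these values.

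Beside Tslp and Il18, the summed markers of 3 epithelial cell types were lower after subcutaneous RTX than after vehicle. The summed level of 12 club and goblet cell genes was 7836 to 8335 CPM after RTX and 11457 to 18144 CPM after vehicle. For 10 ciliated cell genes it was 306 to 327 CPM after RTX and 396 to 599 CPM after vehicle, and for 9 alveolar type 1 genes 3756 to 3954 CPM after RTX and 4847 to 5257 CPM after vehicle. The fold change was negative for 11 of 12, 10 of 10 and 9 of 9 of these genes, where 50.8% of all genes were negative. edgeR and limma voom called none of them, and DESeq2 called 4, 3 and 8. At an unadjusted edgeR p under 0.05 there were 7, 7 and 8, where 18.2% of all genes reached it. The alveolar type 2 sums overlapped, at 14825 to 18156 CPM after RTX and 17588 to 22372 CPM after vehicle. The 7 basal cell and keratinocyte genes summed to 11.3 to 45.8 CPM after RTX and to 20.9 and 21.0 CPM after vehicle. In the chimeras, where Il18 was higher in both GOF libraries, the club and goblet sums were also higher. They were 13154 to 14980 CPM in GOF recipients and 10037 to 12321 CPM in WT recipients. Most of that sum was Scgb1a1, at 8825 and 10169 CPM in GOF recipients and 8181 and 6201 CPM in WT recipients. The fold change was positive for 7 of the 12 genes and negative for 5. Clca1, Muc5ac and Muc5b were at −3.23, −2.99 and −0.66 on the log2 scale (edgeR adjusted p = 0.0686, 0.0587 and 0.0838). DESeq2 called these 3 lower and Bpifa1, Scgb3a1 and Scgb3a2 higher. The ciliated sums were 656 to 667 CPM in GOF recipients and 531 to 540 CPM in WT recipients. The fold change was positive for 8 of these 10 genes, with 0 called by edgeR and 1, Foxj1, by DESeq2. Bpifa1, a secreted airway protein of the club and goblet list, rose in GOF recipients to 336 and 306 CPM, against 103 and 116 CPM in WT recipients (log2 1.56 ± 0.14; edgeR adjusted p = 0.00258). Krt15 of the basal list rose as well (log2 1.79 ± 0.31; edgeR adjusted p = 0.0304), but not without GOF recipient 1 (adjusted p = 0.227). The basal sums overlapped in the chimeras, at 42.7 to 47.7 CPM in GOF recipients and 40.0 to 43.4 CPM in WT recipients. Of the 6 basal genes tested there, 4 had a positive and 2 a negative fold change, with a median of 0.09 on the log2 scale. The part of these markers in the alarmin values was not tested. Dsg3 of the basal list was at 0 in 2 of the 3 subcutaneous RTX libraries, and no other marker of these 5 lists was at 0 in any library.

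No difference between experiments passed for a member. Of the 5, 0 passed for the subcutaneous minus the intrathecal RTX effect (background 0%, with 0 of 18364 genes called), 0 for the GOF minus the subcutaneous effect (background 5.45%) and 0 for the GOF minus the intrathecal effect (background 0.0653%). limma voom also called 0 members in each, and DESeq2 was not run for these. An unadjusted edgeR p under 0.05 was reached by 0 members for the first of these differences (background 13.7%), by Il18 for the second (24.2%) and by Il33 for the third (12%). Among all genes the first difference had 2516 at an unadjusted p under 0.05. These 3 differences share libraries pairwise, since each experiment enters a pair of them.

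The receptors of the alarmins fell in GOF recipients in 3 of 14 cases and rose in none, where 0.717% of all genes tested were called. The list held receptors, their shared chains and decoys. Il1rl1, the IL-33 receptor ST2, was at 5.29 and 4.89 CPM in GOF recipients, against 10.7 and 16.2 CPM in WT recipients. Il7r, the chain that TSLP shares with IL-7, was at 16.1 and 19.6 CPM in GOF recipients, against 41.0 and 35.4 CPM in WT recipients. Il18rap, the accessory chain of the IL-18 receptor, was at 13.6 and 11.4 CPM in GOF recipients, against 21.8 and 23.4 CPM in WT recipients. In each of the 3 genes, which were named because edgeR called them, both GOF libraries lay below both WT libraries. Among all genes tested the chimera groups did not overlap for 42.6%.

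The log2 fold changes were −1.39 ± 0.24 for Il1rl1 (edgeR adjusted p = 0.0267), −1.09 ± 0.15 for Il7r (edgeR adjusted p = 0.0123) and −0.85 ± 0.16 for Il18rap (edgeR adjusted p = 0.0423). Il7r kept its call in every alternative tried. Il1rl1 lost it without GOF recipient 1 (adjusted p = 0.0849), without GOF recipient 2 (adjusted p = 0.0924), with limma voom (adjusted p = 0.0545) and in the 2 fits of all 14 libraries. Il18rap lost it without GOF recipient 2 (adjusted p = 0.113), with limma voom (adjusted p = 0.0517) and in the fit of all 14 libraries without the state term. The ligands of these receptors, Il33, Tslp and Il18, gave values in the same experiment that did not pass.

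Genes of several blood-derived cell types were lower in the same GOF libraries, though not of all. The summed level of 10 T and B cell genes was 151 to 182 CPM in GOF recipients and 304 to 313 CPM in WT recipients, with 3 called lower (Igkc, Cd4 and Cd3e). The 8 alveolar macrophage genes summed to 470 to 478 CPM in GOF recipients and 1289 to 1961 CPM in WT recipients, with Chil3 and Itgax called lower. Most of that sum was Chil3, at 364 and 354 CPM in GOF recipients and 1090 and 1669 CPM in WT recipients, while Marco and Pparg of the same list were at 0.09 ± 0.29 and 0.23 ± 0.18 on the log2 scale and did not pass. Among 8 dendritic cell genes Itgae and Flt3 were called lower, with sums of 101 to 104 CPM in GOF recipients and 142 to 152 CPM in WT recipients. Ccr2 of monocytes and Retnlg of neutrophils also fell. The summed monocyte and interstitial macrophage genes overlapped, at 1820 to 2023 CPM in GOF recipients and 1889 to 1905 CPM in WT recipients. The largest part of these sums was Apoe, at 1264.1 and 1084.5 CPM in GOF recipients and 1018.1 and 837.4 CPM in WT recipients. The fold change was negative for 9 of the 10 genes, with a median of −0.24 on the log2 scale. Of the 10, 4 had an unadjusted edgeR p under 0.05, where 11.6% of all genes reached it. The 7 eosinophil genes tested gave 0 calls by edgeR and a negative fold change for all 7, with a median of −1.57 on the log2 scale. Of these, 5 had an unadjusted edgeR p under 0.05, and DESeq2 called 2, Ccr3 and Prg2. The 8 mast cell and basophil genes tested gave 0 calls by edgeR and a positive fold change for 6, with a median of 0.22 on the log2 scale. In the other direction 6 of 10 heart muscle genes rose, among them Tnnt2, Pln, Myl7 and Sln by 1.10, 1.34, 1.36 and 1.51 on the log2 scale, with sums of 592 to 599 CPM in GOF recipients and 267 to 381 CPM in WT recipients. Without GOF recipient 1 the calls of Cd4, Cd3e, Itgax and Ccr2 were lost (adjusted p = 0.0922, 0.117, 0.495 and 0.286), as was that of Sln (adjusted p = 0.0513), and without GOF recipient 2 those of Itgax, Ccr2 and Flt3 (adjusted p = 0.209, 0.169 and 0.0569) and again Cd3e. The part of these genes in the receptor values was not tested.

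The other 11 receptor genes did not pass in the chimeras, and edgeR called no receptor gene after RTX by either route, where DESeq2 called 1 for intrathecal and 3 for subcutaneous RTX and limma voom 0 for each. The median log2 fold change of the 14 was −0.17 in the chimeras, −0.05 for intrathecal and 0.19 for subcutaneous RTX, and the counts at an unadjusted edgeR p under 0.05 were 5, 4 and 4, where 11.6%, 11.5% and 18.2% of all genes reached it. Il18r1, the binding chain for IL-18, was at 102, 98.4 and 113 CPM after intrathecal RTX, against 144 and 136 CPM after vehicle (log2 −0.41 ± 0.09; edgeR adjusted p = 0.108). Tlr2, a pattern receptor that also binds HMGB1, was at 23.8, 26.3 and 30.0 CPM after intrathecal RTX, against 20.7 and 21.4 CPM after vehicle (log2 0.36 ± 0.12; edgeR adjusted p = 0.289). Neither pair of groups overlapped, which held for 30.3% of all genes tested, and DESeq2 called Il18r1 (adjusted p = 0.00721).

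After subcutaneous RTX, the nearest to edgeR's threshold were Ager and Il7r, which DESeq2 called together with Il1rn. Ager, a receptor of HMGB1 that in the lung is known chiefly from alveolar type 1 cells, was at 1368, 1285 and 1408 CPM after RTX, against 1943 and 1896 CPM after vehicle. Its log2 fold change was −0.52 ± 0.09 (edgeR adjusted p = 0.0992, DESeq2 adjusted p = 1.13e-08), and ran from −0.55 to −0.48 as 1 library was left out. All 9 alveolar type 1 genes had a negative fold change in the same experiment, with a median of −0.39 on the log2 scale. DESeq2 called 8 of them and edgeR 0. Their part in the Ager value was not tested. Il7r was at 43.8, 37.2 and 50.5 CPM after RTX, against 27.6 and 30.1 CPM after vehicle (log2 0.59 ± 0.13; edgeR adjusted p = 0.126, DESeq2 adjusted p = 0.00850). In both genes the groups lay apart, which held for 38.3% of all genes tested. Il1rl1 was at 73.7, 61.2 and 71.5 CPM after RTX, against 35.7 and 59.0 CPM after vehicle (log2 0.53 ± 0.22; edgeR adjusted p = 0.277).

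**Figure D4:**
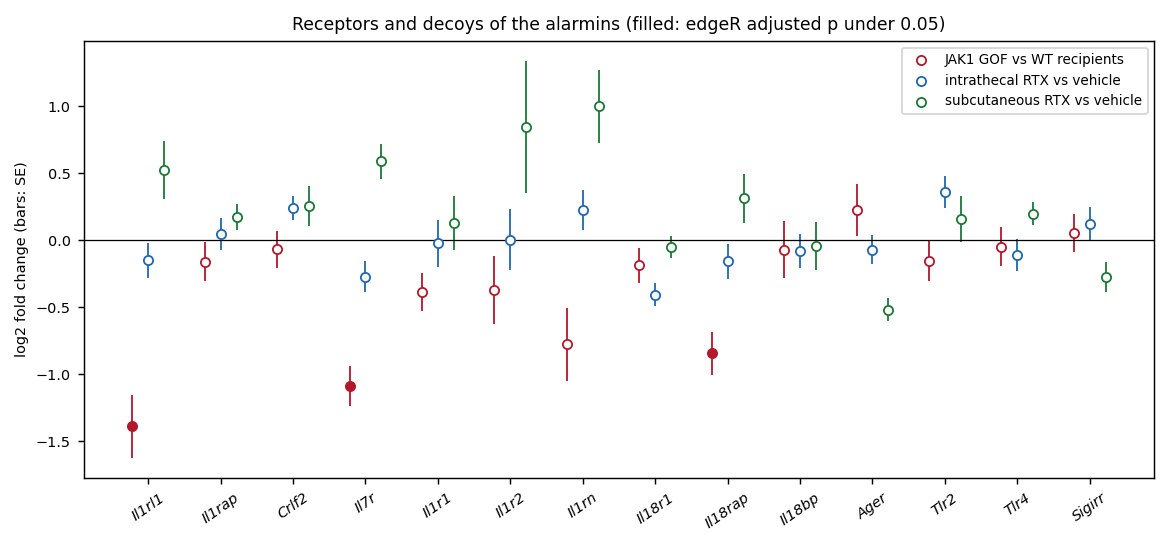
Log2 fold change with its standard error (vertical axis) for 14 receptor, chain and decoy genes of the alarmin pathways in the 3 comparisons, with filled points for an edgeR adjusted p under 0.05. The filled points are Il1rl1, Il7r and Il18rap in GOF against WT recipients, at −1.39, −1.09 and −0.85.

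Of the genes that cleave or release the alarmins, edgeR and limma voom called none in any experiment, and DESeq2 called Aim2 in the chimeras. The list of 19 caspases, inflammasome sensors, gasdermins, calpains and mast cell or neutrophil proteases had 16 genes tested in the chimeras and 17 in each RTX experiment, with 0 called by edgeR in each. At an unadjusted p under 0.05 there were 3, 2 and 6 (11.6%, 11.5% and 18.2% of all genes), and the medians were −0.26, 0.03 and 0.19 on the log2 scale. Aim2, a cytosolic DNA sensor, was at 6.86 and 7.80 CPM in GOF recipients, against 13.48 and 14.03 CPM in WT recipients (log2 −0.90 ± 0.18; edgeR adjusted p = 0.0530, DESeq2 adjusted p = 0.0260). Casp1, the protease that matures IL-18, was at 13.2 and 13.7 CPM in GOF recipients, against 18.8 and 20.6 CPM in WT recipients (log2 −0.54 ± 0.16; edgeR adjusted p = 0.157). The groups lay apart for each gene, which held for 42.6% of all genes tested. Aim2 passed without WT recipient 1 (adjusted p = 0.00235) and without WT recipient 2 (adjusted p = 0.0348).

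For intrathecal RTX the processing gene with the smallest p was Casp8, at 0.24 ± 0.08 on the log2 scale (edgeR adjusted p = 0.278). For subcutaneous RTX the lowest p-values were those of Cma1, mast cell chymase, at 1.23 ± 0.36 and Nlrc4, an inflammasome sensor, at 0.69 ± 0.21 (edgeR adjusted p = 0.156 and 0.168). Cma1 was at 2.74, 2.02 and 2.53 CPM after subcutaneous RTX, against 0.72 and 1.33 CPM after vehicle. Elane, neutrophil elastase, was at 0 in all 4 chimera libraries.

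Signalling genes behind the receptors gave no call by edgeR or limma voom either, with 17 of 17 tested in each experiment, and DESeq2 called Jak2 in the chimeras. At an unadjusted p under 0.05 there were 6 in the chimeras, 4 for intrathecal and 3 for subcutaneous RTX, where the shares of all genes were 11.6%, 11.5% and 18.2%. The fold change was negative for 15 of 17 in the chimeras (median −0.18) and positive for 14 of 17 after intrathecal RTX (median 0.10) and 16 of 17 after subcutaneous RTX (median 0.18). Over all genes 49.9% were negative in the chimeras, and 51.5% and 49.2% positive in the RTX experiments. Jak2, which TSLP receptors also engage, was at 78.0 and 84.5 CPM in GOF recipients, against 109 and 126 CPM in WT recipients. Its log2 fold change was −0.52 ± 0.13 (edgeR adjusted p = 0.0998), and ran from −0.64 to −0.39 as 1 library was left out. Tnfaip3, an inhibitor of NF-κB signalling, was at −0.45 ± 0.12 in the same comparison (edgeR adjusted p = 0.137). After intrathecal RTX, Relb and Nfkbia were at 0.22 ± 0.08 and 0.24 ± 0.09 (edgeR adjusted p = 0.313 and 0.334). After subcutaneous RTX, Nfkb1 and Mapk14 were at 0.29 ± 0.09 and 0.19 ± 0.07 (edgeR adjusted p = 0.180 and 0.208). Nfkb1 ran from 0.16 to 0.44 as 1 library was left out.

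Other epithelial and damage signals gave no call by edgeR or limma voom in any experiment, while DESeq2 called 0 in the chimeras, Il1b and Csf1 for intrathecal RTX, and Csf1 and Tgfb1 for subcutaneous RTX. Of 22 listed genes 18 were matched by these names and 16 were tested. At an unadjusted edgeR p under 0.05 there were 2 in the chimeras, 4 after intrathecal and 3 after subcutaneous RTX. The shares of all genes were 11.6%, 11.5% and 18.2%. Il1b, the secreted relative of IL-1α, was at 25.8, 25.3 and 23.8 CPM after intrathecal RTX, against 14.2 and 17.3 CPM after vehicle. Its log2 fold change was 0.68 ± 0.12 (edgeR adjusted p = 0.0506, DESeq2 adjusted p = 0.000786). In the chimeras it was at 26.4 and 21.2 CPM in GOF recipients, against 34.1 and 40.7 CPM in WT recipients. The log2 fold change there was −0.64 ± 0.15 (edgeR adjusted p = 0.0981), and ran from −0.82 to −0.49 as 1 library was left out. The groups lay apart in both experiments, on opposite sides. Among all genes tested, groups did not overlap for 30.3% in the intrathecal experiment and 42.6% in the chimeras. Il1b also belongs to the neutrophil list, whose sums were 260 to 358 CPM in GOF recipients and 409 to 478 CPM in WT recipients, and 134 to 166 CPM after intrathecal RTX and 113 to 121 CPM after vehicle. The part of these genes in the Il1b values was not tested.

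Csf1, the macrophage growth factor, was at 0.43 ± 0.10 after intrathecal RTX and 0.34 ± 0.07 after subcutaneous RTX on the log2 scale (edgeR adjusted p = 0.129 and 0.121, DESeq2 adjusted p = 0.0202 and 0.00839). Its subcutaneous values were 90.9, 99.5 and 97.6 CPM after RTX, against 76.3 and 73.9 CPM after vehicle. Tgfb1 was at 0.40 ± 0.10 after subcutaneous RTX (edgeR adjusted p = 0.134), and ran from 0.25 to 0.57 as 1 library was left out. Hmgb2, a close relative of Hmgb1, was at −0.41 ± 0.17 in the chimeras (edgeR adjusted p = 0.400). Hmgb2 ran from −0.68 to −0.19 there as 1 library was left out. The list's median log2 fold change was −0.05 in the chimeras, 0.23 for intrathecal and −0.02 for subcutaneous RTX. Il25, a further epithelial type 2 cytokine, was at 0 in all 5 subcutaneous libraries and at no more than 0.05 CPM elsewhere, below the floor of 3 counts.

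Among 12 genes of type 2 lymphocytes, the cells on which IL-33 and TSLP act, 2 of the 8 tested fell in GOF recipients by edgeR, where 0.717% of all genes were called. Il2ra, the IL-2 receptor alpha chain, was at 5.69 and 4.89 CPM in GOF recipients, against 13.1 and 13.8 CPM in WT recipients (log2 −1.33 ± 0.20; edgeR adjusted p = 0.0181). Icos, a costimulatory receptor, was at 10.3 and 9.23 CPM in GOF recipients, against 17.1 and 18.4 CPM in WT recipients (log2 −0.85 ± 0.17; edgeR adjusted p = 0.0461). All 8 genes tested there had a negative fold change, with a median of −0.61. Other T cells can also carry these genes. The T cell genes Cd4, Cd3e and Trbc1 were at −0.89, −0.98 and −0.95 on the log2 scale in the same comparison (edgeR adjusted p = 0.0305, 0.0443 and 0.0998). Their part in the values of Il2ra and Icos was not tested. Icos lost its call without GOF recipient 1 (adjusted p = 0.0848) and without GOF recipient 2 (adjusted p = 0.122), and Il2ra in the 2 fits of all 14 libraries. The cytokine genes Il4, Il5, Il13 and Il9 of the list did not pass the low-count filter in the chimeras and were not tested there. Il9 was at 0 in all 4 chimera libraries, Il4 at 0.11 to 0.67 CPM, Il5 at 0.090 to 0.33 CPM and Il13 at 0.16 to 1.10 CPM.

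In both RTX experiments 11 type 2 genes were tested, and edgeR and limma voom called 0. At an unadjusted edgeR p under 0.05 there was 1 in each, where 11.5% (intrathecal) and 18.2% (subcutaneous) of all genes reached it. DESeq2 called that 1 gene for the subcutaneous route alone. That gene was Il17rb, the receptor of IL-25. It was at 6.538, 4.536 and 5.003 CPM after intrathecal RTX, against 9.10 and 9.38 CPM after vehicle (log2 −0.77 ± 0.19; edgeR adjusted p = 0.158). After subcutaneous RTX it was at 18.2, 14.5 and 22.4 CPM, against 9.74 and 11.1 CPM after vehicle (log2 0.80 ± 0.19; edgeR adjusted p = 0.130). The groups lay apart in opposite directions by the 2 routes, and that difference was not tested for this gene. Among all genes tested, groups did not overlap for 30.3% (intrathecal) and 38.3% (subcutaneous). Rora and Icos, the next by p, were at −0.30 ± 0.13 for intrathecal and 0.29 ± 0.23 for subcutaneous RTX (edgeR adjusted p = 0.442 and 0.542). The medians of the list were 0.12 and 0.14.

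Among the members, Il33 and Il1a varied most alike across libraries. After log2 CPM had been centred within each experiment, Pearson's r over the 14 libraries was 0.77 for Il33 with Il1a, −0.63 for Tslp with Il1a and −0.49 for Il33 with Tslp. The other 7 pairs lay between −0.41 and 0.41. Of 13293 genes searched, those most like Il33 were Ctps (r = 0.950), Chrna7 (0.926) and Pdia6 (0.921), and those most like Tslp were Tspan2 (0.915), Czib (0.886) and Tspan8 (0.873). The closest to Il1a were Aars2 (0.902), Mapk11 (0.895) and Rtn4ip1 (0.880), and to Il18 Pon1 (0.936), Grp (0.927) and Endou (0.920). Lipo3 (0.929), Rap1a (0.914) and Hprt (0.887) were the closest to Hmgb1. These coefficients are the highest of many on 14 points that share depth, state and group, and they are given as descriptions.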

How the data were processed

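RNA was measured in 14 mouse lung libraries: oligo-dT enrichment and NEBNext Ultra II preparation are given per the labels' protocols. Per the submitters' processing notes the tools were FastQC 0.11.8, Trim Galore 0.6.6, STAR 2.7.5b and Salmon 1.2.1, with the build GRCm38. The sources used here give no annotation release or strand setting. The authors deposited estimated counts per gene, 1 table for each of the 3 experiments, and 24.2% of values were not whole. Identifiers matched GENCODE M21 for 54094 of 54347 genes. Counts were rounded to whole numbers for testing. CPM are counts per 1000000 of the library total, and levels per kb use the union exon length.

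Tests ran within each experiment in edgeR 4.0.16 under R 4.3.3 (filterByExpr with a minimum count of 10 and total of 15, TMM scaling, robust quasi-likelihood F test), with Benjamini-Hochberg adjustment over all genes and a threshold of 0.05. SE is the log2 fold change divided by the root of F, and intervals are 95%. Differences between effects were contrasts in 1 fit of all 14 libraries. Procedures were tested on simulated data with 200 changed genes. Replicates differed by more than sampling noise (chi-square per degree of freedom 9.58 to 23.1), so each library counted as 1 sample.

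The members, gene lists and rules were chosen with earlier results of these data known. Of each pathway list, up to 4 members past the threshold are named, or the 2 with the smallest p. Of cell type lists, up to 4 members past the threshold are named. For likeness, the 3 genes with the highest r are named, among genes averaging at least 1 on the log2 CPM scale. Library state was A above 2 CPM of Rps3a2, B at most that and above 2 CPM of Hmga2, and C otherwise. Alternatives covered scaling (DESeq2 size factors or total counts), filtering (none, or over 1 CPM in 2 libraries), DESeq2 1.42.0, limma 3.58.1 voom, all 14 libraries with and without state, a replicate block, summed Hmgb1 copies, and leaving out each library. Figures were drawn with matplotlib 3.10.9. A result that the naming rule would add is not reported here.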

Additional observations from a re-analysis of the deposited data

Results flagged for a closer look

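Il18 was higher in both GOF recipients (5.15 and 5.38 CPM) than in both WT recipients (4.71 and 4.54 CPM), and lower in all 3 subcutaneous RTX libraries (2.68 to 3.62 CPM) than in both vehicle libraries (3.90 and 5.06 CPM). The log2 fold changes of the separate fits differed by 0.72 between these experiments. The tested difference was 0.72 ± 0.30 (SE; edgeR adjusted p = 0.157), which did not pass, and leaving out 1 library in turn gave 0.53 to 0.89. Among all genes tested, groups did not overlap for 42.6% in the chimeras and 38.3% in the subcutaneous experiment. The sums of the pooled club and goblet list and of the ciliated list lay on the same sides as Il18 in both experiments. The sums of the other lists compared did not. In the chimeras, however, Clca1, Muc5ac and Muc5b of the pooled list lay on the other side, at log2 −3.23, −2.99 and −0.66. The part of these lists in the Il18 values was not tested.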

How the results depend on the processing

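The count of members called stayed at 0 in 34 of 36 alternatives and in 39 of 42 fits without 1 library. It was 1 (Il33) for intrathecal RTX with DESeq2 and with no low-count filter. Leaving out 1 library gave 0 to 1 for the chimeras, 0 to 1 for the GOF minus the subcutaneous effect and 0 to 1 for the GOF minus the intrathecal effect, each time Il33 without WT recipient 1, at −0.86, −1.07 and −1.38. In fits without 1 library, chimera log2 fold changes ran from −0.86 to 0.24 (Il33), −0.28 to 0.63 (Tslp), −0.61 to 0.21 (Il1a) and −0.036 to 0.12 (Hmgb1). Those without WT recipient 2 turned to 0.24 (Il33), −0.18 (Tslp) and 0.21 (Il1a), and those without GOF recipient 1 to −0.28 (Tslp) and −0.036 (Hmgb1). The GOF minus the subcutaneous effect ran from −1.07 to 0.047 (Il33) and −0.71 to 0.12 (Il1a), turned in each case without WT recipient 2, and the GOF minus the intrathecal effect of Hmgb1 from −0.017, without GOF recipient 1, to 0.13. Intrathecal Hmgb1, at 0.0012, turned to −0.0024 with DESeq2 and its size factors, −0.016 with total counts, −0.0041 with all 14 libraries, −0.059 with state, −0.00076 with copies summed, and −0.0041, −0.0069 and −0.012 without RTX 1, RTX 3 and vehicle 1 (range −0.012 to 0.014). Subcutaneous Il1a ran from −0.10 (without vehicle 1) to 0.33, at −0.048 without RTX 2. With state, whose term the intrathecal experiment could not set, intrathecal Il33 turned to −0.19. The subcutaneous minus intrathecal effect then turned to 0.80 (Il33) and 0.019 (Hmgb1). The cause of these turns was not tested. No named list gene turned. Over all genes, the edgeR counts of 124, 54 and 0 calls became 807, 655 and 807 without the low-count filter, 50, 7 and 71 with all 14 libraries and 177, 5 and 184 with state, while DESeq2 gave 305, 254 and 761.

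Same-numbered libraries did not deviate together (r of −0.126 to 0.033), so the numbers were not taken as pairs. With the replicate number as a block, 0 members were called in each experiment, with Il33 at −0.31 in the chimeras and 0.34 for intrathecal RTX, subcutaneous Tslp at −1.19 and intrathecal Hmgb1 at −0.0075. Il18rap, Icos and Cd3e were not called under the block (adjusted p = 0.0642, 0.0670 and 0.0649). Depth limits Tslp (16 to 83 counts) and Il18 (56 to 115 counts) most. An adjusted p by DESeq2 was not given for subcutaneous Tslp.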
